A study of Mus musculus with 36 samples.

Results

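The folate transporters and receptors described here are 5 mouse genes, Slc46a1, Slc19a1, Folr1, Folr2 and Slc25a32, out of 51229 genes that GENCODE places on the autosomes. They were chosen by name. Each gene was read as a window of its body and 5 kb on each side, and every CpG listed in a window was a member. The windows held 527 CpGs, each counted once, of 3493603 autosomal CpGs listed in any library.

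Folate enters cells by carriers and by receptors. Slc46a1 encodes the proton-coupled folate transporter, which works best at acidic pH and is the route of intestinal uptake. Slc19a1 encodes the reduced folate carrier, an exchanger used by most tissues. Folr1 and Folr2 encode folate receptors alpha and beta, which are held on the membrane by a lipid anchor and take folate up by endocytosis, and loss of Folr1 in mice is known to block neural tube closure. Slc25a32 encodes the carrier that brings folate into mitochondria, where part of the folate cycle runs. TET1 oxidises 5-methylcytosine (5mC) to 5-hydroxymethylcytosine, a step of demethylation. CpG-rich promoters are usually free of 5mC, and gene bodies usually carry it.

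The study asked how maternal folic acid (FA) and loss of TET1 act together on the embryonic brain. Brains of E11.5 embryos came from heterozygous 129S6.cg Tet1 tm1Koh dams kept on diets of 30, 3 or 0.1 ppm FA, and all groups share this strain and dam genotype. By the study's methods each of these diets also held the antibiotic succinyl sulfathiazole, so all groups share that treatment too. In this allele a cassette sits at the first coding ATG of Tet1, so the full-length transcript is lost in every tissue rather than in the brain alone. By the GEO labels, the numbers of wild-type (WT), heterozygous (HET) and knockout (KO) embryos were 3, 5 and 6 for the 30 ppm diet, 4, 3 and 5 for 3 ppm, and 2, 2 and 5 for 0.1 ppm. Together these were 35 embryos of 12 litters. A further HET embryo on the lowest dose was left out, as in the study. The titles also give sex and phenotype, and neither entered a fit. Both sexes were in every group except HET of 0.1 ppm, whose embryos used were male. Each KO group held embryos titled NTD (neural tube defect) and inHB, which the study's sample list gives as brain malformation. Among WT embryos only replicate 2 of 0.1 ppm was inHB, and among HET only replicates 3 and 4 of 30 ppm. Genotype and malformation thus cannot be told apart in full. Oxidative bisulfite sequencing of MspI and TaqI fragments (oxBS-RRBS) read 5mC alone, and levels are methylated reads as a percent of reads at a CpG. The tissue label could not be checked against marker genes, since no RNA was measured here. In whole brains, a change in all cells and a change in the share of cells that carry 5mC cannot be told apart.

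Libraries held 25.6 to 197 M CpG calls, and a mean of 12.1 to 61.5 reads per listed CpG. Labels were checked at a CpG in Tet1 (mm10 chr10, position 62884019). It is among the Tet1 CpGs chosen for a large difference of KO and WT without the 3 libraries named next. The separation of the other WT and KO embryos there was thus set by the choice. The 7 other WT embryos had 0 to 7.32% and the 15 other KO embryos had 69.6 to 100%, with HET embryos between 8.33 and 69.2%. The library labelled KO replicate 1 of 30 ppm had 45.0% there over 20 reads. The libraries labelled WT replicate 2 of 30 ppm and WT replicate 2 of 0.1 ppm had 36.36% over 33 reads and 40% over 15 reads. The latter had at least 5 reads at no other chosen CpG. The other chosen CpGs were less clean, since at 62884022 the other KO embryos went down to 45.5% and HET embryos up to 66.7%. At 62885621 the library labelled KO replicate 1 of 30 ppm had 0% over 6 reads, where the other KO embryos had 50 to 100%. These 3 libraries went against their labels, and the results below are given with them and, where it matters, without them. For the first of them, the sample list of the study names the embryo as HET while its GEO title says KO, and it is kept here as its title has it. Over the 921363 CpGs read at least 5 times in all 35 embryos, the mean level was 31.6% ± 0.419 (SD, n = 9) in WT, 32.2% ± 0.323 (n = 10) in HET and 33.9% ± 0.686 (n = 16) in KO embryos, so KO embryos were higher over the genome as well. The library labelled KO replicate 1 of 30 ppm was the lowest of the KO libraries, at 31.6%, inside the WT range of 31.2 to 32.4%.

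The sequences on which the results turn are given first, read from the GRCm38 reference (the build of the files, mm10), with the called CpGs in capitals. Calls needed both an adjusted p under 0.05 and groups at least 10 percentage points apart. The first stretch, chr10:77034088-77034272 on the plus strand, lies in intron 1 of Slc19a1 and holds 3 CpGs, all called. The second, chr10:77034559-77034609, lies further into the same intron. The third, chr7:101843670-101843755 on the minus strand, lies in exon 3 of Folr2, in coding sequence.
Slc19a1 intron 1: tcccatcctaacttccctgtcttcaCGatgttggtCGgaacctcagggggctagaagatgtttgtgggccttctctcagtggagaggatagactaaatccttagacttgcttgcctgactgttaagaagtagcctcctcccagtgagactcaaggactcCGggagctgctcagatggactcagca
Slc19a1 intron 1, further in: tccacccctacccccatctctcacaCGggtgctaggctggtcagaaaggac
Folr2 exon 3: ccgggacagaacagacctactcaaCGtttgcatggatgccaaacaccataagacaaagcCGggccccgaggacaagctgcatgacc

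RefSeq (GRCm38.p6) gave promoters, 250 bases before to 50 after a start, for Slc46a1, Slc19a1 and Folr2, and none for Folr1 and Slc25a32. A promoter of each surface transporter is printed for comparison with the intron above, with the CpGs covered at least 5 times in 2 or more libraries in capitals. The Slc46a1 promoter is chr11:78465451-78465750 on the plus strand, with 8 such CpGs of 14. The first of them, at -220 bp from the gene start, had a mean of 26.9% in 4 WT embryos, and the other 7 had WT means of at most 0.771%. The second Slc19a1 promoter is chr10:77032962-77033261 on the plus strand, with 19 such CpGs of 21, whose mean level was at most 0.556% in WT and 0.843% in KO embryos.
Slc46a1 promoter: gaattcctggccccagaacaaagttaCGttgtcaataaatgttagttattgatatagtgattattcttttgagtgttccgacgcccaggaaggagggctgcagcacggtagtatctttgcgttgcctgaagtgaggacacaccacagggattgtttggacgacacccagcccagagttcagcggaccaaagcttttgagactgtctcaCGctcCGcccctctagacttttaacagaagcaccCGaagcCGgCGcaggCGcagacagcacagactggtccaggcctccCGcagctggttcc
Slc19a1 promoter: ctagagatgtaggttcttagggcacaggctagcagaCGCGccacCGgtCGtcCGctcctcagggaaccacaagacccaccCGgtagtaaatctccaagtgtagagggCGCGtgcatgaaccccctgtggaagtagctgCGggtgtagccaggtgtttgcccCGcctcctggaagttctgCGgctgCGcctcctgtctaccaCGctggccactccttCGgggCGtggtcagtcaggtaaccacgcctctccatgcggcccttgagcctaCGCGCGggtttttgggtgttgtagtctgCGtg

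The assay read these genes unevenly, because it reads only near the sites CCGG (MspI) and TCGA (TaqI). Of 20780 promoters of protein-coding genes, taken within 1 kb of the gene start, 86.56% held a CCGG and 79.49% a TCGA on the reference. The Slc25a32 promoter held 16 CCGG and 4 TCGA, and 71 of its 108 CpGs were covered at least 5 times in 2 or more libraries. The Slc19a1 promoter held 7 and 1, with 34 of 67 CpGs covered. The Slc46a1 promoter held 5 and 3, with 35 of 74 covered. The receptor promoters were nearly unread. That of Folr2 held 2 CCGG and 1 TCGA, with 2 of 17 CpGs covered, and that of Folr1 held 2 CCGG and no TCGA, with 0 of 18 CpGs listed in any library.

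**Figure D1:**
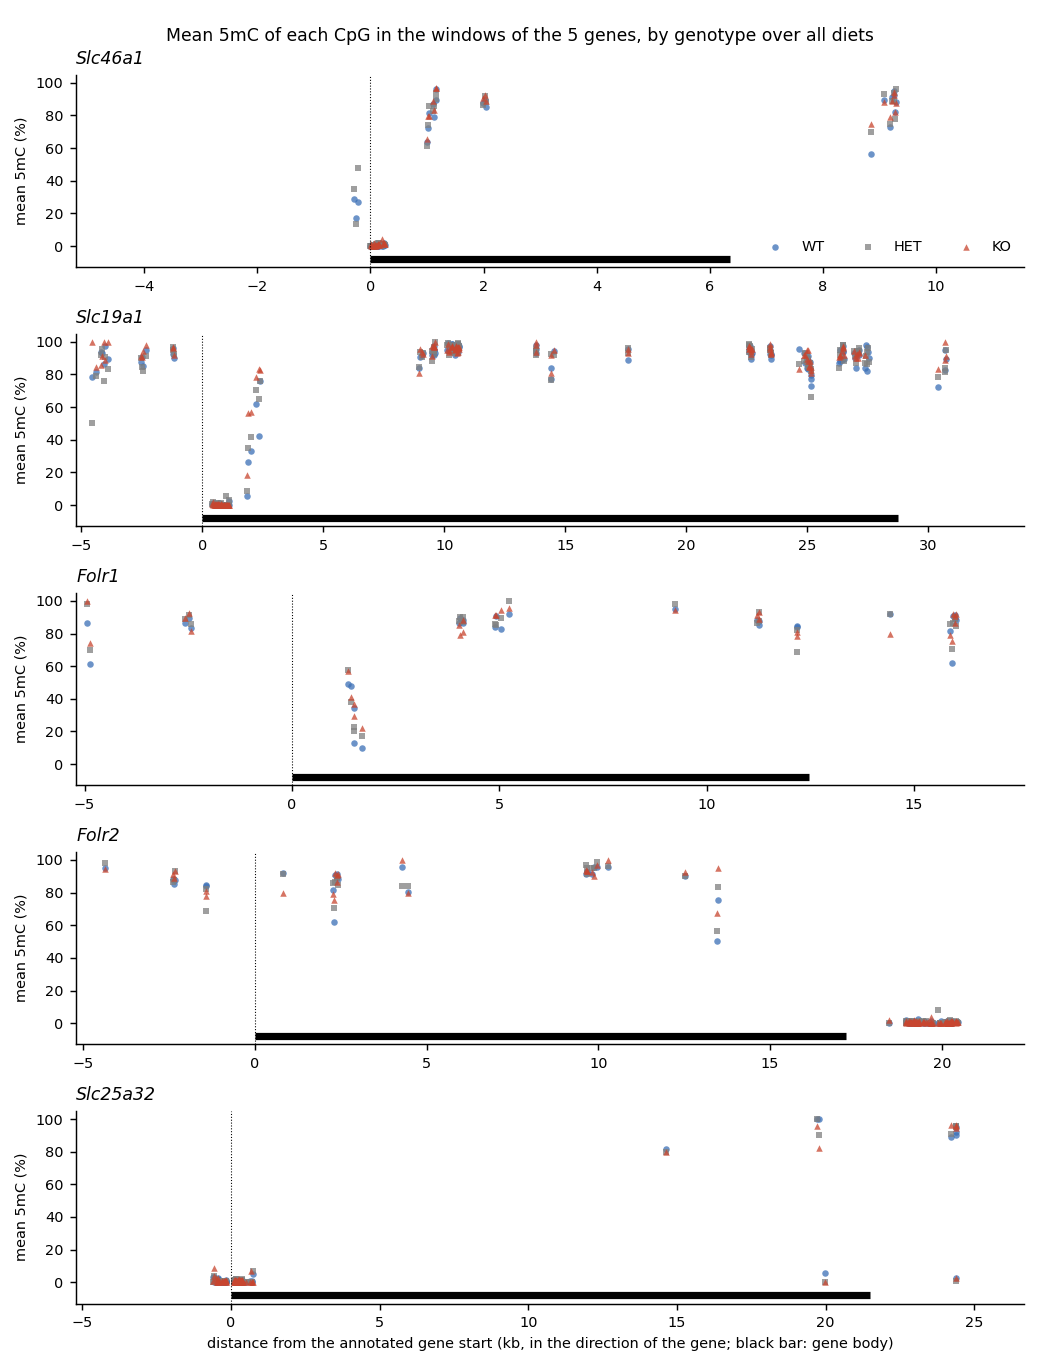
Mean 5mC (percent) of each CpG covered at least 5 times in 8 or more libraries, by genotype over all diets, against the distance from the annotated gene start in kb. The black bar is the gene body. Levels stand near 0 at the starts of Slc46a1 and Slc25a32 and from 400 bp into Slc19a1, and near 90% in most of the bodies. In Slc19a1 the CpGs 1872 to 2006 bp into the gene lie between these levels with KO above HET above WT.

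Whole parts of the genes had no call. In Slc46a1 (chr11:78465697-78472059, plus strand, ENSMUSG00000020829.9), 62 of the 228 CpGs in its window were covered, and exons 3, 4 and 5 and introns 1 and 4 had none. In Slc19a1 (chr10:77032241-77061002, plus strand, ENSMUSG00000001436.15), 168 of 574 were covered, and exons 2 and 5 and intron 4 had none. Its annotated start was unread too, with no covered CpG between -1176 and 400 bp. In Folr1 (chr7:101858331-101870788, minus strand, ENSMUSG00000001827.12), 51 of 228 were covered, none of them between -2442 and 1358 bp from the gene start. Exons 1, 3, 4 and 6 and intron 5 of Folr1 had none. In Folr2 (chr7:101839988-101857194, minus strand, ENSMUSG00000032725.10), 124 of 381 were covered. Exon 3 was the only exon with a covered CpG, and introns 1, 3, 4 and 5 had none. In Slc25a32 (chr15:39091231-39112716, minus strand, ENSMUSG00000022299.9), 86 of 335 were covered, with none in exons 2 to 6 or introns 3, 4 and 6. Folr1 and Folr2 lie 1136 bp apart, so their windows overlap by 8.864 kb and share 26 CpGs.

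The first question was whether KO embryos differed from WT embryos of the same diet at these genes. On 30 ppm, 0 of the 187 member CpGs tested were called, against 0.999% of all autosomal CpGs tested, and 16 had an unadjusted p under 0.05, as 11.16% of all CpGs did. Without the 2 libraries of that diet that went against their labels, 3 of 121 member CpGs were called on 30 ppm, all higher in KO, against 6.75% of all CpGs, and they were 77034123 (17.7 points, adjusted p = 0.0208) and 77034247 (24.9 points, adjusted p = 0.0354) in Slc19a1 and 101843730 in Folr2 (19.7 points, adjusted p = 0.0180). On 3 ppm, 6 of 180 were called, all higher in KO, against 6.55% of all CpGs. On 0.1 ppm, 1 of 151 was called, higher in KO, against 3.04%. Without WT replicate 2 of that diet, which left a single WT embryo, it was 0 of 177, against 0%. Over all diets, with diet in the fit, 4 of 231 were called, all higher in KO, against 4.8%, and without the 3 libraries 4 of 219, against 5.85%. In none of these comparisons was the share of members called above that of all CpGs. With litter in the fit no CpG of the genome was called on 3 ppm (0 of 1214748) or 0.1 ppm (0 of 889296), so that fit gives no information on single member CpGs there, and over all diets it called 2 of 220 member CpGs and 40815 of all 1609415. On 3 ppm, 3 were called without KO replicate 2. The median KO minus WT difference of the member CpGs over all diets was 1.02 points, and that of all CpGs tested was 2.00 points. All these p-values are from a quasi-binomial F test adjusted by Benjamini-Hochberg over all autosomal CpGs, and they treat the embryos as independent although some were littermates.

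Summed over tiles of 1 kb, in which reads of at least 3 CpGs were pooled in each embryo, 1 member tile was called in each comparison of KO with WT. That was 1 of 12 tiles on 30 ppm, where 5.66% of all tiles were called, 1 of 12 on 3 ppm (all tiles, 16.3%), 1 of 15 on 0.1 ppm (all tiles, 11.2%) and 1 of 11 over all diets (all tiles, 14.2%). It was the same tile each time, in intron 1 of Slc19a1, and its level was higher in KO. Without the libraries that went against their labels it was called again, as 1 of 10 tiles on 30 ppm (all tiles, 16%) and 1 of 12 over all diets (all tiles, 18.3%). On 0.1 ppm a single WT embryo was then left, and the tile differed by 25.1 points. At a coverage of at least 10 this tile could not be tested, and no other member tile was called. With all libraries, no other tile in any window reached 10 points together with an adjusted p under 0.05. The nearest were both in Slc19a1, where the tile centred 26260 bp into the gene differed by 8.01 points on 0.1 ppm (adjusted p = 0.0295, quasi-binomial F test) and the tile centred at 25260 bp by 3.83 points over all diets (adjusted p = 0.0372, the same test). Without WT replicate 2 of 0.1 ppm, which left a single WT embryo, the tile at 25260 bp differed by 12.2 points on that diet. Both tiles also lie within Col18a1 on the other strand, which overlaps Slc19a1 from 19937 bp into the gene.

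**Figure D2:**
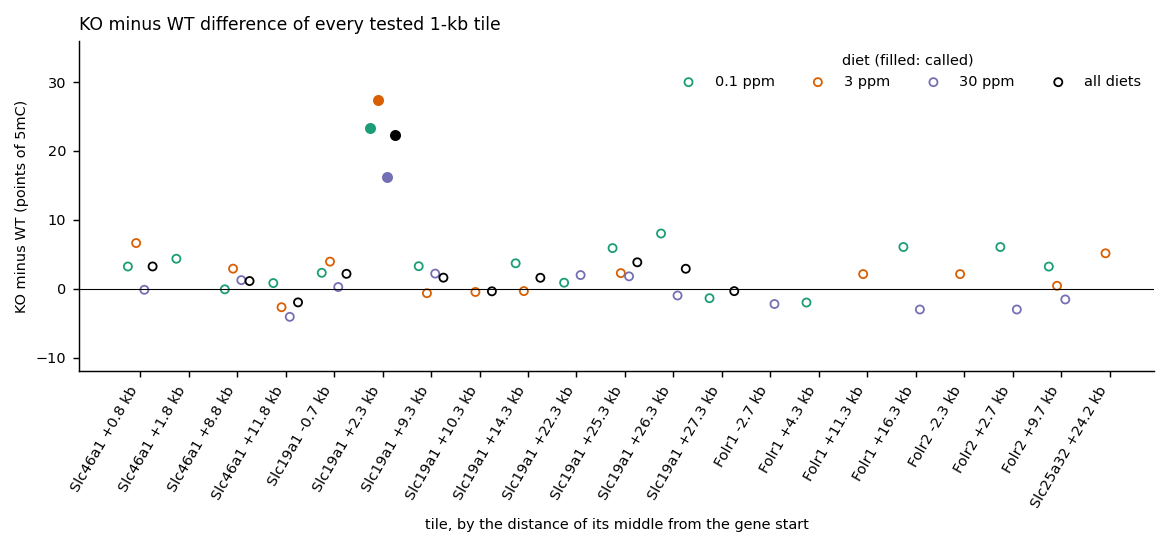
KO minus WT difference in percentage points of 5mC for each tested 1-kb tile (x axis, the gene and the distance of the tile's middle from its start), with a point per diet and for all diets together. Filled points were called. The tile 2260 bp into Slc19a1 stands at 16.3 to 27.4 points, and all other points lie between -4.09 and 8.01 points. Tiles shared by Folr1 and Folr2 appear under both genes.

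Slc46a1, the proton-coupled transporter, had no called CpG or tile. By targeted bisulfite sequencing of whole embryos, the study found KO above WT on excess FA at the edge of its CpG island. The RRBS libraries did not cover that site, so the absence of calls does not bear on it, and only other parts of Slc46a1 are described here. At its start, 22 CpGs in a row from -4 to 261 bp from the gene start had low levels (a mean under 10% at each), at most 1.55% in WT and 4.19% in KO embryos, with means over these CpGs of 0.346% in WT, 0.632% in HET and 0.956% in KO embryos. Just upstream, 3 CpGs between -296 and -220 bp from the start had WT means of 16.9 to 28.6%, and no KO library reached 5 reads there, so KO could not be compared at that edge. Its lowest p over all diets was at 78474886, after the gene and inside Sarm1 on the other strand. WT embryos had 72.7% ± 5.89 there and KO embryos 79.1% ± 10.4 (difference 6.78 points, adjusted p = 0.133, quasi-binomial F test). Between diets in KO, the CpGs with the lowest p were 78474921, also inside Sarm1, at 85.6% on 30 ppm and 95.4% on 3 ppm (adjusted p = 0.725), and 78465942, with a difference of -2.43 points for 0.1 against 3 ppm (adjusted p = 0.760). Within exon 2, 7 CpGs between 998 and 1161 bp into the gene had WT means from 63.5 to 96.1%.

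Averaged over the 13 gene body CpGs covered in all embryos, Slc46a1 stood at 57.4% ± 1.26 (SD, n = 9) in WT, 58.2% ± 1.09 (n = 10) in HET and 59.9% ± 2.21 (n = 16) in KO embryos. The difference of KO and WT was 2.47 points (exact permutation test within diets, two-sided, p = 0.00288, the smallest possible being 4.5e-06). With the reads pooled over the same CpGs it was 3.06 points (exact permutation p = 0.259), and with each embryo's own covered CpGs it was -2.06 points (exact permutation p = 0.682). On 3 ppm, the KO embryos had 60.1, 62.2, 60.4, 63.2 and 60.3%, all above the 4 WT embryos, which reached 57.7%. That difference was 4.62 points (exact permutation p = 0.00794, the smallest that 5 against 4 embryos can give). Over the 921363 CpGs read in all embryos, KO embryos of that diet (33.8 to 34.8%) also all lay above the WT embryos (31.2 to 31.8%). How many genes separate in this way was not counted. On 30 ppm the Slc46a1 body means were 57.9% in KO and 57.8% in WT. Between diets within KO, the body differed by -3.34 points for 30 against 3 ppm (exact permutation p = 0.0130), and 5 of the 6 embryos on 30 ppm lay below all 5 on 3 ppm. Without the library labelled KO replicate 1 the difference was -2.95 points (exact permutation p = 0.0317), and with the reads pooled over the same CpGs it was -0.818 points (exact permutation p = 0.820). Over all tiles of the genome the median of the same difference was -1.35 points, and 30.05% of tiles were higher on 30 ppm. A separate test, run on tiles, asked whether the KO minus WT difference changed from the 3 to the 30 ppm diet. In the Slc46a1 tile centred 804 bp into the gene that change was -6.79 points (p = 0.0459, adjusted p = 0.731 in the quasi-binomial F test), which was not called. This was 1 of 11 member tiles with an unadjusted p under 0.05 in that test, where 6.787% of all tiles had one.

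Slc19a1, the reduced folate carrier, carried the called tile. The CpG-rich stretch past its annotated start had low levels in every genotype. There, 40 covered CpGs from 400 to 1110 bp into the annotated gene had means of 0.310% in WT and 0.227% in KO embryos, over 712 bp with a GC content of 63.34%. The annotated transcript whose exons are counted above starts within that stretch, at position 77032684. Past it, the level climbed within intron 1, and the called CpGs of the gene lie there.

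The called tile is chr10:77034001-77035000 (mm10), centred 2260 bp into the gene, and the 3 CpGs that entered are those in capitals in the first sequence above. On 3 ppm, the 4 WT embryos had 18.7, 22.3, 21.2 and 24.6%, and the 5 KO embryos had 39.5, 48.6, 44.7, 58.3 and 54.4%. On 0.1 ppm, the 2 WT embryos had 19.4 and 23.1%, and the 5 KO embryos had 48.3, 50, 47.5, 38.33 and 38.67%. On 30 ppm, the 3 WT embryos had 20.3, 28.6 and 29.7%, and the 6 KO embryos ranged from 27.4 to 51.6% with a median of 42.2%. The groups did not overlap on 3 and 0.1 ppm. The tile was picked because it was called in these same embryos, so this is no separate support. How many of all tiles show no overlap was not counted. On 30 ppm they overlapped through a single embryo, the library labelled KO replicate 1, which went against its label at Tet1, and the other 15 KO embryos of the series were all above the 9 WT embryos.

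**Figure D3:**
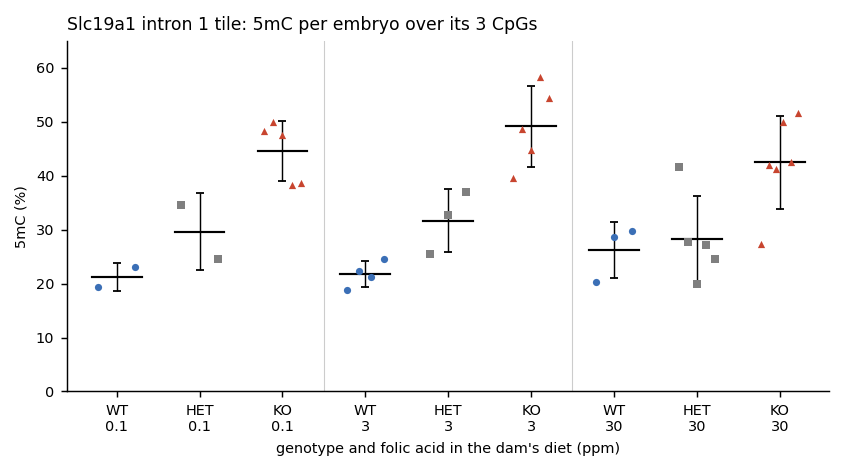
5mC (percent) of the Slc19a1 intron 1 tile in each of the 35 embryos, pooled over its 3 CpGs, by genotype and diet. Points are embryos, horizontal lines means and bars 1 SD. WT embryos lie between 18.7 and 29.7%, HET embryos between 20 and 41.6% and KO embryos between 27.4 and 58.3%.

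The difference of KO and WT was 27.4 points on 3 ppm (adjusted p = 1.81e-06), 23.3 points on 0.1 ppm (adjusted p = 0.00798) and 16.3 points on 30 ppm (adjusted p = 0.0385), all in the quasi-binomial F test. Over all diets it was 22.3 points (adjusted p = 1.5e-08), with means of 23.1% ± 3.89 (SD, n = 9) in WT and 45.2% ± 7.49 (n = 16) in KO embryos. Without the 3 libraries that went against their labels it was 24.3 points (adjusted p = 1.77e-10), and on 30 ppm it rose to 20.5 points (adjusted p = 0.000936). The call on 30 ppm was lost when the litter entered the fit (adjusted p = 0.0564) and when any of 7 embryos was left out, namely WT replicates 1 and 3 and KO replicates 2 to 6 (difference 13.3 points without WT replicate 1, adjusted p = 0.401, where 16 of 65049 tiles of the genome were called). On 0.1 ppm it was lost without WT replicate 1 (difference 21.5 points, adjusted p = 0.257), which left a single WT embryo. The calls on 3 ppm and over all diets held with each embryo left out in turn.

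HET embryos had 29.5% ± 6.66 (SD, n = 10) in this tile. They exceeded WT by 2.03 points on 30 ppm, 9.96 points on 3 ppm (quasi-binomial F test, adjusted p = 0.231) and 8.34 points on 0.1 ppm, and none of these was called in the quasi-binomial F test. Within KO, 30 ppm differed from 3 ppm by -6.66 points and 0.1 ppm from 3 ppm by -4.56 points, neither called. Between the 30 and the 3 ppm diet the KO effect differed by -11.2 points (p = 0.0652, adjusted p = 0.745, quasi-binomial F test of the interaction), so a diet difference in the KO effect was not detectable with these embryos.

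Averaged over all diets, the CpGs of the tile had higher levels further into the intron in each genotype. Within diets this order did not always hold, since KO embryos on 3 ppm averaged 65.8% at 77034123 and 59.1% at 77034247, and on 0.1 ppm the same 2 CpGs averaged 26.8 and 24.7% in WT and 39.4 and 36.73% in HET embryos. On 30 ppm the genotypes were not in order either at 77034123, with 34.7% in WT and 32.2% in HET embryos. The CpG at 77034113 (1872 bp into the gene) had 5.35% ± 4.07 (SD, n = 9) in WT, 8.37% ± 5.57 (n = 10) in HET and 18.3% ± 6.52 (n = 16) in KO embryos. The CpG at 77034123, 10 bp on, had 26.4% ± 10.6, 34.96% ± 11.9 and 56.1% ± 10.2 in the same groups. The CpG at 77034247 had 33.2% ± 5.98, 41.42% ± 8.18 and 56.7% ± 12.1. All of these CpGs were called over all diets, with adjusted p-values of 0.00548, 3.15e-05 and 0.000339 (quasi-binomial F test). On 3 ppm they differed by 15.4, 45.7 and 23.4 points, and all were called. With no filter on the SD only the CpG at 77034123 was still called on that diet (adjusted p = 0.299, 0.0435 and 0.133), and with unmoderated dispersion none was (adjusted p = 0.255, 0.0519 and 0.128). The fit with litter called no CpG of the genome on 3 or 0.1 ppm. The differences are those of the group means, so litter cannot change them. Over all diets that fit no longer called the CpG at 77034113 (12.6 points, adjusted p = 0.0619). On 3 ppm the call at 77034113 was also lost without WT replicate 1, KO replicate 2 or KO replicate 3 (adjusted p = 0.0845, 0.0564 and 0.0652). On 0.1 ppm only the CpG at 77034247 was called, at 33.6 points (adjusted p = 0.00454), and without the library labelled WT replicate 2 the difference was 34.95 points and not called (adjusted p = 0.810), and without WT replicate 1 it was 32.2 points and not called (adjusted p = 0.849). Each of these fits held a single WT embryo and called no CpG of the genome. The CpG at 77034584, called on 3 ppm with 57.1 points (adjusted p = 0.0285), rested on 2 KO embryos with 5 and 6 reads, both at 100%, and on 3 WT embryos at 61.9, 66.7 and 0%. Without WT replicate 3, the embryo at 0%, the difference was 35.7 points and was not called (adjusted p = 0.0664).

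**Figure D4:**
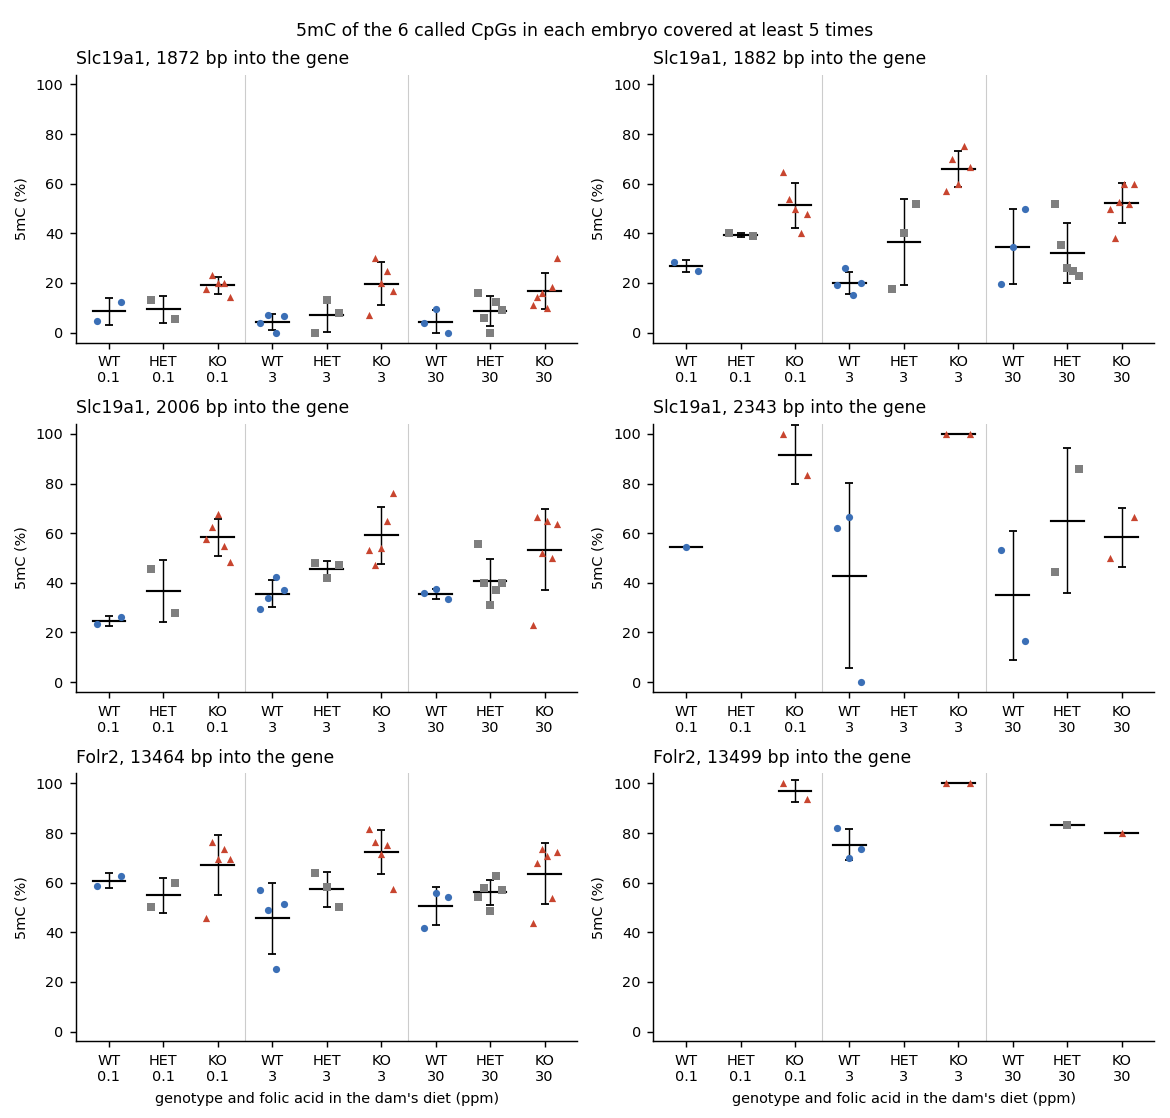
5mC (percent) of the 6 called CpGs in each embryo with at least 5 reads there, by genotype and diet, with group means and 1 SD. The 3 CpGs of the Slc19a1 tile and the Folr2 CpG 13464 bp into the gene were read in all 35 embryos, and the other 2 panels rest on 14 and 9 embryos.

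The Slc19a1 body as a whole was highly methylated. From 19937 bp on it also lies within Col18a1 on the other strand, past the end of the transcript whose exons are counted (77050432). Over the 51 CpGs of the body covered in all embryos, the 3 called CpGs of the tile among them, the level was 80.2% ± 1.45 (SD, n = 9) in WT, 81.0% ± 1.10 (n = 10) in HET and 83.0% ± 1.19 (n = 16) in KO embryos. The tiles centred at 22260, 23260, 25260, 26260 and 27260 bp, all inside Col18a1, held 9, 6, 8, 3 and 5 of these CpGs. The body level is thus in good part that of sequence shared with Col18a1. The KO minus WT difference was 2.89 points (exact permutation p = 4.95e-05), and it was 2.57, 2.41 and 3.69 points on 30, 3 and 0.1 ppm. With each embryo's own covered CpGs, which differ between embryos, the direction turned, to -3.87 points (exact permutation p = 0.213). With the called CpGs removed, an alternative chosen after seeing the data, the 48 left differed by 1.68 points over all diets (exact permutation p = 0.0118). Slc19a1 lies on the chromosome of Tet1, 14.1 Mb away. By the study's methods the allele was backcrossed from another strain, so sequence near Tet1 may differ between KO and WT embryos. CpGs counted as KO only had reads in at least 80% of KO libraries and in 0 WT libraries. Between 65 and 70 Mb of that chromosome, 17 of 8809 CpGs were KO only and 1 was WT only. There were 0 of either kind between 60 and 65 Mb, around Tet1, and between 75 and 80 Mb, around Slc19a1. Whether linked sequence affects the called tile was not tested.

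Folr1, receptor alpha, had no called CpG among 30 tested over all diets, where 4.8% of all CpGs were called. An unadjusted p under 0.05 (quasi-binomial F test) was found at 2 of the 30, and at 15.89% of all CpGs. Only 2 CpGs of its window, at -2470 and -2587 bp from the gene start, were read in all embryos, at 88.1% ± 4.86 (SD, n = 9) in WT, 90.1% ± 4.57 (n = 10) in HET and 90.9% ± 5.85 (n = 16) in KO embryos. On 3 ppm the 5 KO embryos averaged 94.5% and lay above all 4 WT embryos, which averaged 86.7% (difference 7.77 points, exact permutation p = 0.00794, the smallest possible). That WT mean was pulled down by WT replicate 2, at 77.9%, where the other WT embryos had 88.9 to 90.6%. Over the 921363 CpGs read in all embryos, the KO embryos of 3 ppm also all lay above the WT embryos. How many genes separate in this way was not counted. At the 2 Folr1 CpGs, the KO mean on 30 ppm was below the WT mean (89.6 and 90.8%), and on 0.1 ppm the means were 88.9% in KO and 86.7% in WT. Over all diets the difference was 2.92 points and did not pass (exact permutation p = 0.239), and with each embryo's own covered CpGs of the window it was -1.32 points (exact permutation p = 0.580). The nearest readable CpGs to its start, at exon 2 and the end of intron 1, were partly methylated. The CpG 1501 bp into the gene, in the 5′ untranslated part of exon 2, had a mean of 34.6% in 6 WT embryos and 36.8% in 16 KO embryos, with KO values from 0 to 100%. The CpG 1359 bp into the gene had 49.2% in 5 WT and 56.9% in 6 KO embryos. These CpGs, the 2 read in all embryos and the CpG at 101865759 named next also lie within Anapc15 on the other strand. The lowest p over all diets was at 101865759 in intron 3, 82.9% in WT and 94.3% in KO embryos (difference 10.6 points, p = 0.0226, adjusted p = 0.200, quasi-binomial F test). Between diets in KO the lowest p of the window was past the end of Folr1, at 101854803, a CpG shared with the Folr2 window that lies in intron 2 of Folr2, with a difference of -20.4 points for 30 against 3 ppm (adjusted p = 0.665) and -13.05 points for 0.1 against 3 ppm (adjusted p = 0.760).

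Folr2, receptor beta, had its called CpGs in coding exon 3. At 101843730, 13464 bp into the gene, the 4 WT embryos of 3 ppm had 57.1, 48.9, 25 and 51.3%, and 4 of the 5 KO embryos had 81.5, 76.2, 71.4 and 75%. KO replicate 5 lay just above the highest WT embryo, so the groups did not overlap on that diet, at a CpG named because it was called. The difference of 26.8 points was called (adjusted p = 0.00521, quasi-binomial F test). The groups overlapped on the other diets. On 30 ppm WT embryos had 41.7, 55.8 and 54.3% and KO embryos 43.8 to 73.7% with a median of 69.3%, and on 0.1 ppm WT embryos had 58.7 and 62.9% and KO embryos 45.83, 76.2, 69.7, 73.5 and 69.6%. Over all diets the levels were 50.6% ± 11.4 (SD, n = 9) in WT, 56.2% ± 5.38 (n = 10) in HET and 67.4% ± 11.1 (n = 16) in KO embryos, a difference of 15.4 points within diets (adjusted p = 0.0301), and 18.2 points without the 3 libraries (adjusted p = 0.00985). These differences are of group means, so litter in the fit cannot change them. With litter neither was called (adjusted p = 0.399 on 3 ppm, where that fit called no CpG of the genome, and 0.165 over all diets). With no filter on the SD, which on 3 ppm called 9125 of 1809095 CpGs, neither was called (adjusted p = 0.475 on 3 ppm and 0.0501 over all diets). The call over all diets was also lost without WT replicate 1 of 30 ppm (adjusted p = 0.0978), without WT replicate 2 of 3 ppm (adjusted p = 0.0501), and without KO replicate 1, 2, 3 or 4 of 3 ppm (adjusted p = 0.0570, 0.0512, 0.0548 and 0.0601). The second CpG, 35 bp on at 101843695, was called on 3 ppm from 3 WT embryos at 82.1, 70 and 73.7% and 2 KO embryos, both at 100%, over 9 to 84 reads each. Its difference of 24.7 points was not called with no filter on the SD (adjusted p = 0.543), with unmoderated dispersion (adjusted p = 0.472), which called 6642 of 1235262 CpGs, or with litter in the fit (adjusted p = 0.554), which called none.

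Only 4 CpGs of the Folr2 body were read in all embryos, at 81.2% ± 4.14 (SD, n = 9) in WT and 86.8% ± 3.89 (n = 16) in KO embryos (difference 5.23 points, exact permutation p = 0.00361). Without the called CpG the 3 left differed by 1.85 points (exact permutation p = 0.241). The window average of Folr2 was 5.11% in WT and 5.501% in KO embryos, and with each embryo's own covered CpGs KO was lower by a difference of -2.36 points (exact permutation p = 0.186). It was low because 67 of its 71 shared CpGs lie after the gene, in a stretch of 84 covered CpGs between 18461 and 20465 bp from the Folr2 start that had a mean of 0.516% in WT and 0.608% in KO embryos. That stretch overlaps Inppl1 and Gm10602, so the window average of Folr2 is mostly a level outside that gene.

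Slc25a32, the mitochondrial carrier, had no called CpG or tile. Its start was the best read of all, with 68 covered CpGs from -597 to 737 bp from the gene start that had a mean under 10% each, at most 5% in WT and 8.98% in KO embryos. The part of that stretch before -149 bp lies within Dcaf13 on the other strand, so it is not of Slc25a32 alone. Over the 48 Slc25a32 promoter CpGs read in all embryos the level was 0.493% ± 0.165 (SD, n = 9) in WT, 0.796% ± 0.408 (n = 10) in HET and 0.775% ± 0.334 (n = 16) in KO embryos. The difference of KO and WT was 0.294 points (exact permutation p = 0.0333) and that of HET and WT 0.270 points (exact permutation p = 0.0457), both under a percentage point. Without the 3 libraries the KO difference was 0.291 points (exact permutation p = 0.100). Past 1044 bp into the gene no CpG was covered for 7.556 kb, and the 62 CpGs there could not be described. At 14643 bp, in intron 5, the level was 81.6% in 6 WT and 79.6% in 5 KO embryos. After the gene, the CpG at 39088500 had the lowest p over all diets, 8.93 points higher in KO (adjusted p = 0.176, quasi-binomial F test). Between diets in KO it was at 39088331, with a difference of -6.04 points for 30 against 3 ppm (adjusted p = 0.727) and -7.29 points for 0.1 against 3 ppm (adjusted p = 0.760).

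**Figure D5:**
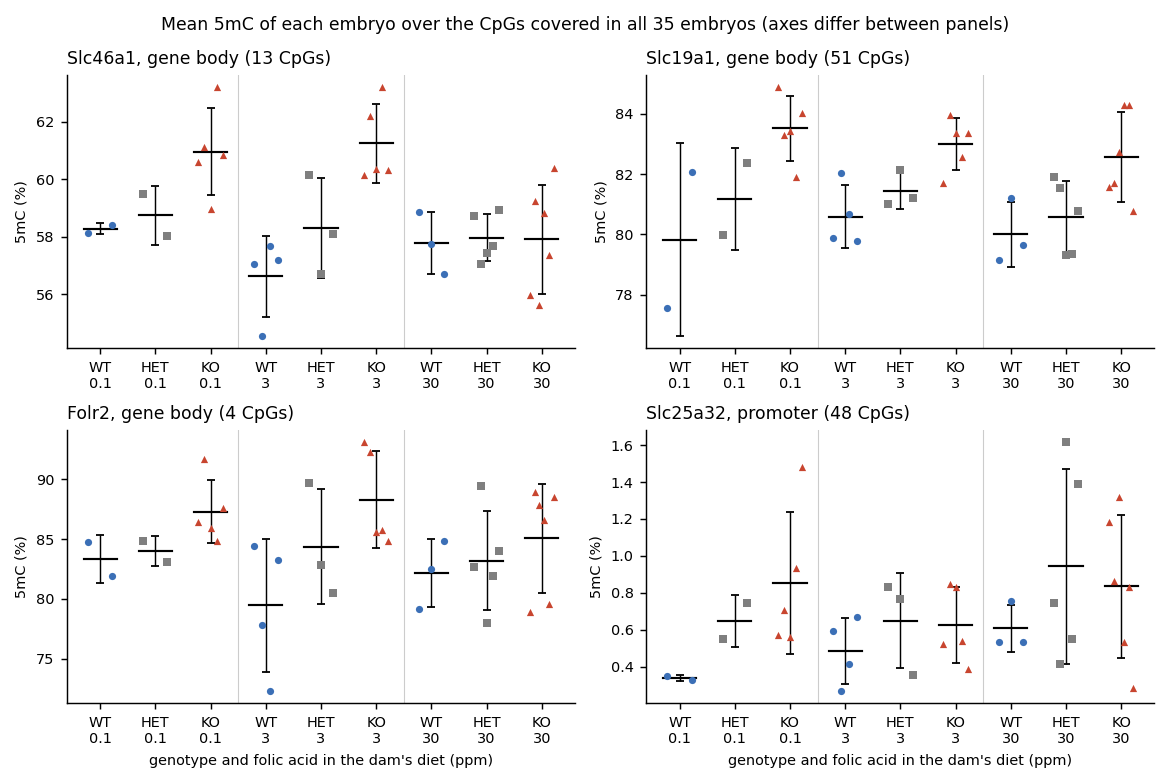
Mean 5mC (percent) of each embryo over the CpGs with 5 or more reads in each of the 35 embryos, for the bodies of Slc46a1, Slc19a1 and Folr2 and the promoter of Slc25a32, by genotype and diet, with group means and 1 SD. The y axes differ and do not start at 0. The KO means lie above the WT means in every panel and diet, from 0.127 points in Slc46a1 on 30 ppm up to 8.84 points in Folr2 on 3 ppm.

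Taking each gene's window, promoter, body and flanks where they could be read, 15 stretches were compared, and KO exceeded WT in 14 over all diets, with an unadjusted p under 0.05 in 9 (exact permutation). With reads pooled, 4 had such a p. With each embryo's own covered CpGs, 9 of the stretches turned to lower in KO and 2 had such a p. Within diets, with levels averaged over the shared CpGs as at first, the stretches with an unadjusted p under 0.05 (exact permutation) were 2 on 30 ppm and 7 on 3 ppm. They were 2 on 0.1 ppm, where 5 against 2 embryos cannot give a p below 0.0476. In all, 26 of 210 such tests passed, and they share embryos and CpGs. How many stretches of all genes would pass was not counted, so these counts do not set the members apart. Over all 921363 shared CpGs KO also exceeded WT, from 31.6 to 33.9%.

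HET embryos were compared with WT embryos of the same diet. None of the 192, 168 and 123 member CpGs tested on 30, 3 and 0.1 ppm was called, against 0.000378%, 0.0151% and 0.00114% of all CpGs, and 9, 8 and 5 of them had an unadjusted p under 0.05 in the quasi-binomial F test, as 5.77%, 7.07% and 6.81% of all CpGs did. None of the 12 member tiles tested on each diet was called, against 0%, 0.812% and 0.0924% of all tiles. Without the WT libraries that went against their labels, 0 of 119 member CpGs and 0 of 12 tiles were called on 30 ppm, against 0.011% of all CpGs and 0.943% of all tiles, and 0 of 132 member CpGs and 0 of 14 tiles on 0.1 ppm, against 0% and 0.711%.

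Diets were compared within each genotype. On 30 against 3 ppm, 0 member CpGs were called in WT (of 181 tested, all CpGs 0.000464%), HET (of 185, all 0.00397%) and KO embryos (of 198, all 0.00039%). On 0.1 against 3 ppm, 0 were called in WT (of 131, all 0.00538%), HET (of 166, all 0.00364%) and KO embryos (of 184, all 0.00577%). Between 3 and 13 of them had an unadjusted p under 0.05 in each comparison of the quasi-binomial F test, and 5.33 to 6.84% of all CpGs did. No member tile was called either, where all tiles gave 0% in WT, 0.0201% in HET and 0% in KO on 30 ppm, and 0.131%, 0.0979% and 0% on 0.1 ppm. The difference of the KO effect between diets was tested at 179 member CpGs for 30 ppm and 150 for 0.1 ppm and at 11 tiles for each, and 0 were called, as for 0% of all CpGs and 0% of all tiles. With 2 to 6 embryos in a group, absence of calls does not show that diet left these genes unchanged.

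Beside the members, 15 other genes were counted, listed for folate uptake and retention or as relatives of the members by gene family. The relatives were the thiamine and related carriers Slc19a2, Slc19a3, Slc46a2 and Slc46a3, and Izumo1r of the folate receptor family. The others were the exporters Abcc1 to Abcc5 and Abcg2, the endocytic receptors Lrp2 and Cubn, and the polyglutamate enzymes Fpgs and Ggh. Over all diets, 45 of the 1509 CpGs of these 15 genes were called, or 2.98%, all higher in KO, in 11 of the genes, where 4.8% of all CpGs were called. Of their tiles, 6 of 64 were called, all higher in KO, where 14.2% of all tiles were called, so neither share was above that of the genome. The 5 tiles with the biggest differences were in Slc46a2, 555 bp into the gene (30.6% in WT, 73.7% in KO, adjusted p = 1.68e-08), in Abcc3, 496 bp in (13.6 and 48.0%, adjusted p = 3.04e-10), in Abcc4, 154718 bp in (7.65 and 25.02%, adjusted p = 4.77e-06) and 15718 bp in (77.2 and 87.5%, adjusted p = 6.91e-06), and in Cubn, 312 bp in (23.3 and 34.0%, adjusted p = 0.000464), all in the quasi-binomial F test. The Slc19a1 tile, at 22.3 points, lay between the Abcc3 and Abcc4 tiles in size.

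The genes whose window level varied most like that of each member over the 35 embryos were found by Pearson's r among 14776 protein-coding genes. They were Oprm1 (r = 0.869), Sh3tc1 (0.857) and Slc9a3r1 (0.855) for Slc19a1, Mtmr11 (0.817), Zfp385b (0.790) and Fgfr4 (0.785) for Slc46a1, Senp6 (0.781), Diablo (0.762) and Akr1b8 (0.755) for Folr2, and Myrf (0.660), Fdx1 (0.598) and Zfp526 (0.594) for Slc25a32. The median r over all genes was 0.556 for Slc19a1, 0.472 for Slc46a1, 0.438 for Folr2 and 0.124 for Slc25a32. All points share the libraries and the rise in KO, so these values are a description. Folr1 had too few shared CpGs for it.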

How the data were processed

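Per the labels and the study's methods, the authors trimmed reads with Trim Galore 0.6.10, aligned them to mm10 with Bismark 0.24.1, removed duplicates by molecular identifiers with UMI-tools, and deposited, for each CpG and library, a methylated fraction and a total read count. Both were used here: fraction times count gave methylated reads. The lowest deposited count is 2, and 9 deposited lists of the authors' own comparisons were not used. Positions were counted from 1, and genes taken from GENCODE vM21.

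CpGs entered with coverage of at least 5 in 2 or more libraries of both groups and an SD of at least 2 points. Tiles of 1 kb needed 3 CpGs, each with 5 or more reads in all embryos compared. A quasi-binomial logistic F test, its dispersion moderated as in limma (3.58.1) and kept at 1 or more, was written in Python 3.11.15 with numpy 2.4.6 and scipy 1.17.1, tested on simulated data, and adjusted by Benjamini-Hochberg over all autosomal features. Tiles shared by Folr1 and Folr2 were counted once. Levels are means over CpGs with 5 or more reads in each of the 35 embryos, compared by two-sided exact permutation within diets, unadjusted. Intervals of counts would cover counting error only. The titles name the litters. The deviations of KO and WT littermates from their group means had a median correlation of 0.0121 over 14 pairs, against -0.00428 over 34 pairs from other litters of the same diet.

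Named CpGs were, for each gene, the called ones, at most 5 per comparison, and, where none was called, those with the lowest p in KO against WT over all diets and between diets in KO. Alike genes were the top 3 by Pearson's r. The 5 genes and the list of 15 were chosen with earlier results of these data known. Embryos are separate animals, but littermates share a dam.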

Additional observations from a re-analysis of the deposited data

Results flagged for a closer look

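In 5 of 80 groups of 4 to 6 embryos tested, a single embryo stood far from the rest of its group, by the gap to its nearest neighbour over the range of the group (Dixon's 95% limit). Chance alone flags about 1 in 20 groups. The Slc19a1 promoter had 1.67% in KO replicate 1 of 30 ppm, the library that went against its label at Tet1, and 0% in the other 5. It had 0.641% in KO replicate 3 of 3 ppm and 0% in the other 4. With all other embryos at 0%, any value above 0 is flagged, so the rate of 1 in 20 does not hold for these promoter groups. The flanks of Slc19a1 had 88.0% in KO replicate 5 of 3 ppm, and 95.4 to 98.3% in the others. The Folr1 window, which rests on 2 CpGs, had 77.9% in WT replicate 2 of 3 ppm, and 88.9 to 90.6% in the others. The Folr2 window had 6.16% in KO replicate 2 of 3 ppm, and 5.49 to 5.59% in the others.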

How the results depend on the processing

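The Slc19a1 tile kept its direction with each embryo, or the libraries that went against their labels, left out. The other settings that could test it were no SD filter, a minimum of 20 points, litter as a block and unmoderated dispersion. They cannot change a difference of group means, only the call. At 30 ppm the tile's 16.3 points were not called with a minimum of 20 points, with litter as a block (adjusted p = 0.0564) or with unmoderated dispersion (adjusted p = 0.212, all tiles 0 of 65354), and at 0.1 ppm its 23.3 points were not called with unmoderated dispersion (adjusted p = 0.113, all tiles 291 of 69314). Leaving out 1 embryo gave 13.3 to 19.3 points on 30 ppm, 25.1 to 29.8 on 3 ppm, 21.5 to 25.1 on 0.1 ppm and 21.4 to 23.3 over all diets. At coverage 10 this tile could not be tested, so tile calls in KO against WT were 0 instead of 1 on every diet and over all diets. On 30 ppm they were 0 with 20 points, the litter block or unmoderated dispersion, and 0 to 1 leaving out 1 embryo. On 0.1 ppm they were 0 unmoderated, and the fits without either WT embryo of that diet left a single one, so their counts are not given. CpG calls on 30 ppm were 1 at coverage 10, 3 without the 3 libraries and 0 to 1 leaving out 1. On 3 ppm they were 1 with no SD filter (all CpGs, 9125 of 1809095), 0 unmoderated (all, 6642 of 1235262), 0 with the litter block (all, 0 of 1214748) and 3 to 6 leaving out 1. On 0.1 ppm they were 0 with no SD filter, unmoderated, with the litter block or without the 3 libraries, settings that called 0 CpGs in the whole genome and so tell nothing of the members, and 0 to 1 leaving out 1. Over all diets they were 2 with 20 points and 2 with the litter block, which changed no other count of calls. The litter block was not run for HET against WT on 0.1 ppm.

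Stretches with a level p under 0.05 (exact permutation) in KO against WT were, with reads pooled, 0, 2, 0 and 4 on 30, 3 and 0.1 ppm and over all diets, and, with each embryo's own CpGs, 1, 2, 0 and 2. Without the 3 libraries they were 1 on 30 ppm and 0 on 0.1 ppm. Leaving out 1 embryo gave 0 to 2, 6 to 8, 0 to 0 and 6 to 9. On 0.1 ppm such a p cannot be reached with an embryo fewer, so these 2 zeros say nothing. For HET over all diets they were 0 pooled, 0 with own CpGs, 3 without the 3 libraries, 2 with HET replicate 2 of 0.1 ppm kept and 0 to 3 leaving out 1. In KO, 30 against 3 ppm gave 0 pooled and 2 to 5 leaving out 1, and 0.1 against 3 ppm gave 1 pooled and 1 to 2. With each embryo's own CpGs, which averages different CpGs in each embryo, the KO minus WT level over all diets turned to -2.42 (window), -1.86 (promoter) and -2.06 (body) in Slc46a1, -3.78 (window) and -3.87 (body) in Slc19a1, -1.32 in the Folr1 window, -2.36 (window) and -1.47 (flanks) in Folr2, and -1.53 in the Slc25a32 body. The Folr2 flanks turned to -0.0184 without the 3 libraries, and the Slc19a1 promoter, at -0.00955, ranged from -0.151 to 0.178 leaving out 1. Removing the called CpGs, chosen after seeing the data, took the Folr2 window to 0.156. With labels permuted within litters, 1 stretch lost its p under 0.05 (exact permutation) in KO against WT over all diets. Beyond what the construction of an alternative shows, the cause was not tested. The Folr1 promoter had no CpG calls.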

Other observations

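After Slc25a32, the CpG 24391 bp from the gene start had means of 2.38% in WT (n = 7), 0.667% in HET (n = 10) and 2.59% in KO embryos (n = 14), while the CpGs at 24378, 24385 and 24398 bp had means between 90.1 and 96.5%. In the last exon of Slc25a32, the CpG at 19989 bp had 5.56% in 3 WT embryos and 0% in 3 HET and 3 KO embryos, while the CpG at 19768 bp had 100% in the same number of WT embryos and 82.5% in 3 KO embryos.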
